A study of Mus musculus with 42 samples.

Results

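The genes described here are 10 genes of the endothelium, the cell layer that lines blood and lymph vessels: the receptor kinases Tek, Tie1, Kdr and Flt4, the co-receptor Eng, the guidance receptor Robo4, the secreted factor Egfl7, and the junction genes Cdh5, Pecam1 and Cldn5. They were found by their symbols, or an alias of it, in the annotation of the array's probes, and each gene was read from its probe of highest mean signal over all arrays. The 10 genes had 21 of the 45281 probes of the array and were 10 of 19057 genes with a named probe. RNA came from the left lung of 42 mice of the strain 129S2 K-rasLA1, in which, per the labels, K-ras is mutant. This line carries a latent oncogenic allele that becomes active by chance recombination, so lungs of every group can hold tumours, and their number was not analysed here. Fractionated mice (n = 14, 7 males and 7 females) had received 5 exposures to 0.2 Gy of 56Fe particles, acute mice (n = 15, 8 males and 7 females) 1 exposure to 1.0 Gy, and control mice (n = 13, 7 males and 6 females) none. Lungs were taken 70 days after irradiation, and ages were not used here. The labels name each sample as 1 lung, so n counts mice. The design text gives 13 fractionated mice where 14 arrays bear that label.

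The lung holds one of the largest capillary beds of the body, and endothelial cells make up a large part of its cells. VEGF receptors (Kdr, Flt4 and the related Flt1) and the pair Tek and Tie1, which respond to angiopoietins, carry growth and quiescence signals into these cells. Endoglin, encoded by Eng, assists receptors of the BMP and TGF-beta family, and VE-cadherin (Cdh5), PECAM-1 and claudin-5 hold neighbouring cells together and set how much fluid passes between them.

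Of the 10 genes, 8 were detected (detection p under 0.01) on 42 of 42 arrays, and so in every group. Detection in whole lung does not show which cells made a transcript. Flt4, whose product is the main VEGF receptor of lymphatic endothelium, was detected on 10 of 14 fractionated, 15 of 15 acute and 13 of 13 control arrays. Kdr, the main signalling receptor for VEGF-A, was detected on 0 of 42 arrays with either of its 2 probes, whose mean signals of 118 and 103 lay near the array medians of 90.5 to 155. These probes gave no level of Kdr in any group, and no value below is its. The tests therefore cover 9 genes. In whole lung, fewer endothelial cells and less of these transcripts per cell cannot be told apart.

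Each array held between 16264 and 18289 detected probes (median 16974), and the 42 arrays lay on 8 slides, of which slide 8 held 1 fractionated male. The array of fractionated replicate 13, a female, stood apart: over all tested probes it correlated at 0.866 with the profile of median values. Fractionated replicate 4 had 0.962, acute replicate 9 had 0.964 and the other 39 arrays 0.969 to 0.992. In this lung 5 of 6 measured markers of immature T cells were detected, whereas 5 of these 6 were detected on none of the other 41 arrays. Its proliferation markers lay 3.71 above the median of the 41 others on the log2 scale (mean deviation of 13 genes), its mature T cell markers 3.82 above (5 genes), and its heart muscle markers at -4.00 (7 genes). Group results are given with and without this mouse.

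All values that follow are normalized log2 signals, on which a difference of 1 is a factor of 2. A probe's level cannot be set against another probe's, so the genes are not ranked among themselves. The first question of the design is whether the lung differs 70 days after either schedule.

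Among the angiopoietin receptors, Tek (Tie2), which keeps vessels quiet when bound by Angpt1, ranged over 9.80, 12.26 and 12.60 (lowest, median and highest) in fractionated lungs, 11.22, 12.22 and 12.62 in acute lungs and 11.62, 12.12 and 12.91 in control lungs. Its partner Tie1, an orphan receptor that modulates Tek, had 7.67, 9.59 and 10.17 in fractionated lungs, 8.32, 9.47 and 10.14 in acute lungs and 8.95, 9.52 and 10.16 in control lungs. For both genes the 3 medians lay close together and the groups overlapped over most of their range; 3 fractionated and 2 acute lungs lay below the lowest control lung for Tek, and 2 fractionated and 1 acute for Tie1.

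Eng showed the widest range of the genes, with 8.72, 11.88 and 12.78 in fractionated lungs, 10.83, 11.99 and 12.82 in acute lungs and 11.38, 12.03 and 13.20 in control lungs. Here 5 fractionated and 4 acute lungs lay below the lowest control lung, while the highest value of all belonged to a control lung. Flt4 had 4.93, 6.28 and 7.53 in fractionated lungs, 5.64, 6.43 and 7.22 in acute lungs and 6.01, 6.65 and 7.14 in control lungs. Its 4 fractionated lungs without detection sit at the background, where a difference is understated, yet 2 fractionated lungs were above every control lung. Robo4, a receptor that stabilises vessels against VEGF, had 9.10, 11.40 and 12.02 in fractionated lungs, 10.72, 11.50 and 12.18 in acute lungs and 11.11, 11.36 and 12.05 in control lungs. The fractionated and acute medians of Robo4 were thus at or above the control median, with a tail of 5 fractionated and 2 acute lungs below the lowest control lung.

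Egfl7, a matrix protein that endothelial cells secrete and that guides the formation of vessel tubes, had 12.06, 13.70 and 14.09 in fractionated lungs, 12.72, 13.83 and 14.57 in acute lungs and 13.27, 13.86 and 14.22 in control lungs. Only 3 fractionated lungs and 1 acute lung fell outside the control range on the lower side.

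The junction genes had the same shape. Cdh5, the adherens junction cadherin, had 9.49, 11.84 and 12.18 in fractionated lungs, 10.42, 11.84 and 12.11 in acute lungs and 11.41, 11.75 and 12.25 in control lungs. Pecam1, an adhesion molecule at cell borders, had 10.66, 12.45 and 12.92 in fractionated lungs, 11.32, 12.39 and 12.74 in acute lungs and 12.10, 12.52 and 12.79 in control lungs. Cldn5, the tight junction claudin of endothelium, had 11.93, 13.54 and 13.97 in fractionated lungs, 12.13, 13.40 and 14.22 in acute lungs and 13.07, 13.59 and 13.84 in control lungs. Between 4 and 5 fractionated lungs lay below the lowest control lung for these 3 genes, and the remaining fractionated lungs lay within or above the control range. The second probes of Egfl7 and Cdh5, each detected on 42 arrays, followed the first over 41 lungs with r = 0.918 and r = 0.928, and that of Pecam1 with r = 0.672. The dimmest probe of Pecam1, detected on 40 arrays, had r = 0.540, and that of Egfl7, detected on 17, had r = -0.121.

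**Figure D1:**
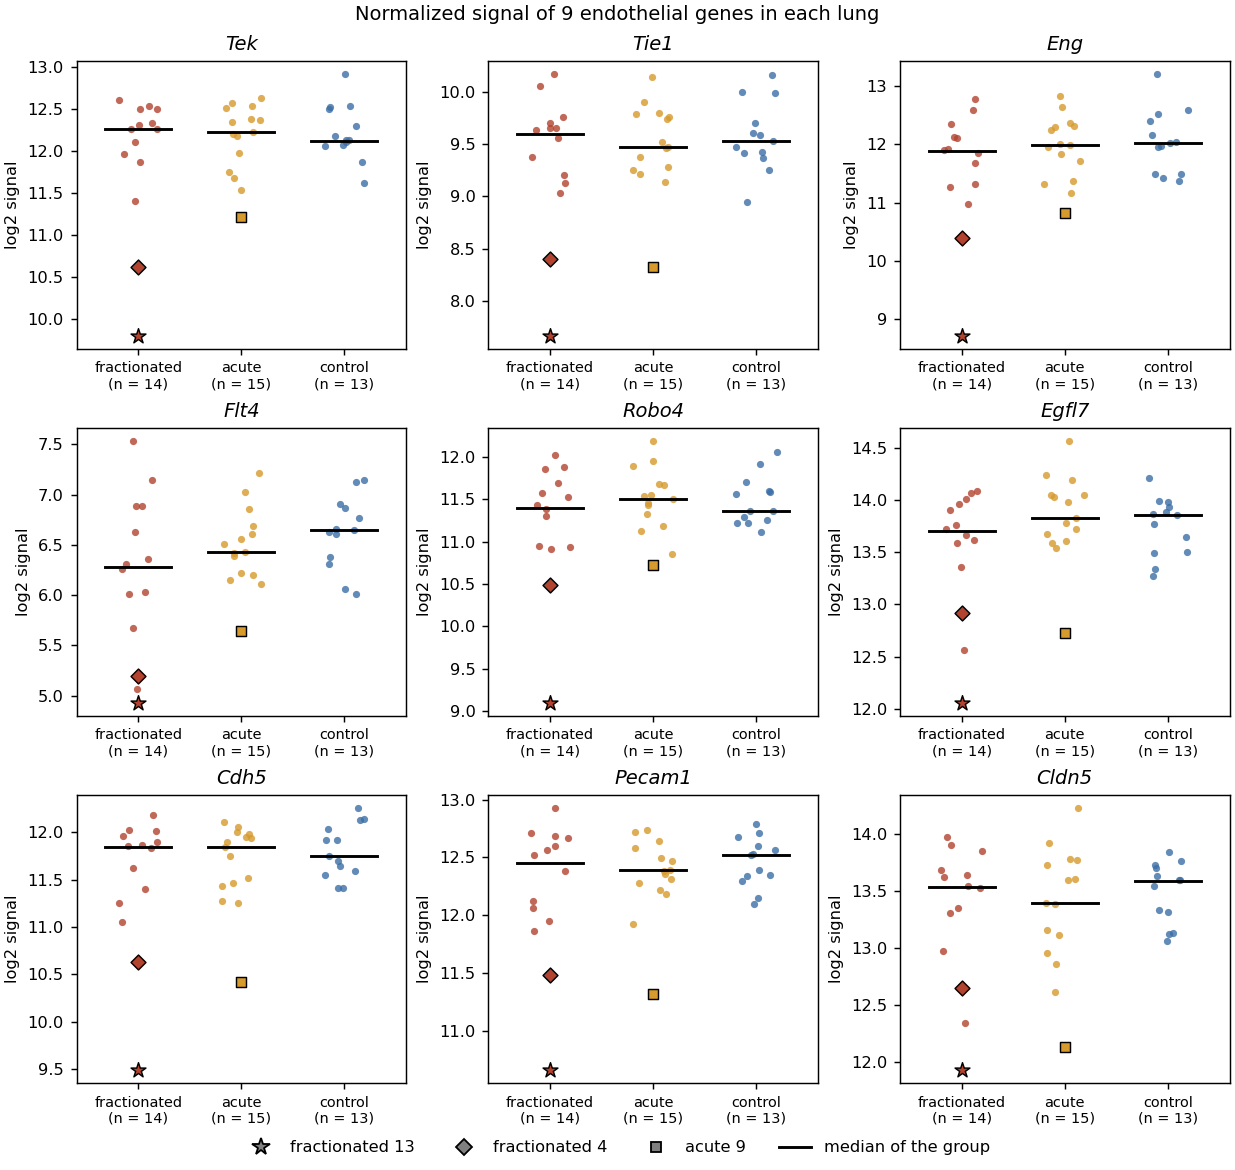
Normalized log2 signal (y axis) of 9 endothelial genes in every lung, 1 point per mouse, with the median of each group as a bar. In each panel the star, fractionated 13, is the lowest of the 42 lungs, fractionated 4 and acute 9 lie near the bottom of their groups, and the group medians lie close together.

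Between fractionated and control lungs, 9 of 9 genes had a lower mean in fractionated lungs, and 0 of 9 passed the test (limma, adjusted p under 0.05), as did 0 of the 17927 probes tested (0%). By unadjusted p under 0.05, 784 probes (4.37%) but 0 of the 9 genes would have passed. The difference was -0.45 ± 0.26 for Eng (log2 difference ± SE, n = 14 and 13, 95% interval -0.97 to 0.065), a ratio of 0.731. It was -0.41 ± 0.20 for Flt4 (-0.82 to 0.0026), the smallest unadjusted p of the 9 by limma (0.0514, adjusted p = 0.934). The other 7 lay between -0.29 ± 0.19 for Cdh5 and -0.17 ± 0.18 for Cldn5, each with a limma adjusted p of 0.934. The median over the 9 genes was -0.25, beside -0.0040 over all probes tested, of which 51.2% lay below 0. Each 95% interval included 0, so none of these differences in means was resolved from 0.

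The size of these differences depended on a few lungs. Without fractionated replicate 13, Eng lay at -0.26 ± 0.21 (n = 13 and 13), Flt4 at -0.32 ± 0.20, Cdh5 at -0.14 ± 0.15, Pecam1 at -0.11 ± 0.13, and Cldn5 at -0.075 ± 0.17. Of the 9 genes, 9 were still lower in fractionated lungs, beside 50.1% of all probes, and the median was -0.12. Fractionated replicate 4 and acute replicate 9 were then left out as well, a choice made after seeing the data. The median of the genes was then -0.038, beside 0.0026 over all probes, and 8 of 9 were lower. Slides 1 to 7 each held all 3 groups, and within a slide the signs were divided: fractionated lungs without replicate 13 lay below control lungs on 5 of 7 slides for Eng (-1.07 to 0.33) and Pecam1 (-0.57 to 0.31), on 4 of 7 for Flt4, Tek and Cldn5, and on 3 of 7 for Robo4, Egfl7, Cdh5 and Tie1. With slide as a block the median was -0.27 over all lungs and -0.13 without replicate 13, and 0 of 9 genes passed. Of the markers of other cells, heart muscle genes were lower in fractionated lungs for 7 of 7 (median -0.61, and -0.35 without replicate 13), red cell genes for 3 of 3 (-0.85 and -0.63), alveolar type 2 genes for 9 of 9 (-0.13 and -0.073), alveolar type 1 genes for 10 of 10 (-0.17 and -0.079), fibroblast genes for 8 of 9 (-0.18 and -0.051), platelet and megakaryocyte genes for 4 of 4 (-0.29 and -0.23) and smooth muscle and pericyte genes for 7 of 9 (-0.11 and -0.0073). B cell genes were lower for 2 of 2 (-0.46 and -0.38). Macrophage genes were higher for 4 of 5 (0.22 and 0.23) and proliferation genes for 13 of 13 (0.34 and 0.061). Mature T cell genes were higher for 5 of 5 over all lungs (0.11) and for 2 of 5 without replicate 13 (-0.13). None of these passed the test, and their part in the result was not tested.

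Between acute and control lungs, 8 of 9 genes were lower and Egfl7 was higher in acute lungs, and 0 of 9 passed, beside 0% of all probes (253 probes, 1.41%, at an unadjusted p under 0.05, with 0 of these genes). The differences lay between -0.16 ± 0.20 for Flt4 (n = 15 and 13) and 0.090 ± 0.16 for Egfl7, with a median of -0.12 beside 0.0075 over all probes, 46.7% of which lay below 0. Eng was at -0.12 ± 0.25 (95% interval -0.63 to 0.39), Cdh5 at -0.14 ± 0.18 (-0.52 to 0.23) and Robo4 at -0.0044 ± 0.18 (-0.38 to 0.37). When each array was scaled on its median in place of quantiles, the median over all probes moved to 0.11 and that over the 9 genes to 0.017, still below it. These comparisons and those of fractionated lungs share the 13 control lungs.

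The second question, whether dividing the dose matters, was answered by fractionated against acute lungs. Of the 9 genes, 9 were lower in fractionated lungs, with differences between -0.33 ± 0.25 for Eng and -0.029 ± 0.17 for Cldn5 and a median of -0.20, beside -0.013 over all probes and 54.6% of probes below 0. For Egfl7 the difference was -0.31 ± 0.15 (n = 14 and 15, limma p = 0.0514, adjusted p = 1.00). The test passed 0 of 9 genes and 0% of probes (372 probes, 2.08%, at an unadjusted p under 0.05), and limma's F test over the 3 groups likewise passed 0 of 9 and 0% (370 probes, 2.06%, unadjusted). Without fractionated replicate 13 the median was -0.044, and 6 genes were lower and 3 higher in fractionated lungs, beside 52.4% of probes lower.

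**Figure D2:**
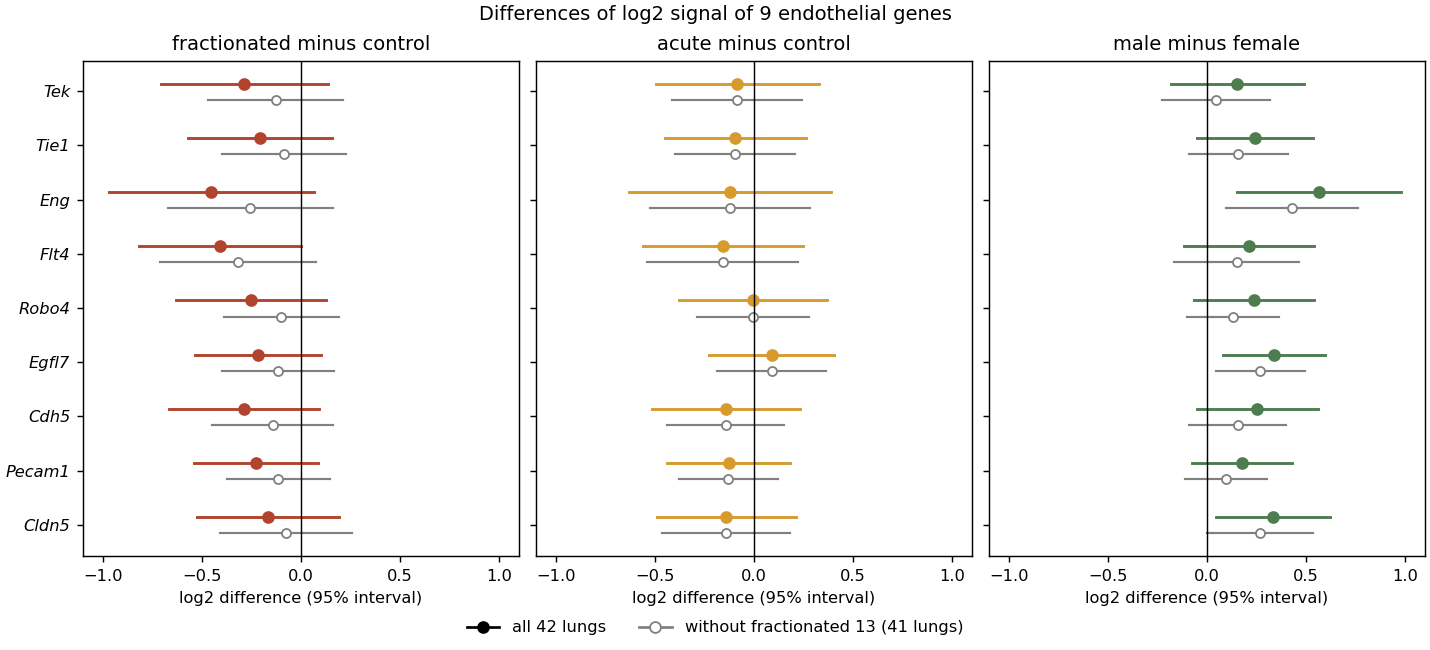
Log2 difference of each gene (x axis, point) with its 95% interval (line) for fractionated minus control, acute minus control and male minus female lungs, from all 42 lungs (filled) and without fractionated 13 (open). Each interval of the first 2 panels includes 0, and the points of the first panel move toward 0 when fractionated 13 is left out.

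The spread of the genes among lungs is described here without a test. Among all 14 fractionated lungs the SD of a gene was 1.94 to 2.84 times that among control lungs (median 2.32), while it was larger for 81.5% of all probes (median 1.36). Without replicate 13 it was 1.24 to 2.04 times the control SD, larger for 9 of 9 genes (median 1.62), while it was larger for 66.8% of all probes (median 1.14). Among acute lungs the SD was 1.05 to 2.07 times that of control lungs, again larger for 9 of 9 genes (median 1.37), beside 53.6% of probes (median 1.03). For Pecam1, the SD was 0.42 in fractionated lungs without replicate 13 and 0.35 in acute lungs, against 0.21 in control lungs (n = 13, 15 and 13). The ratios depended on a few lungs. Fractionated replicate 13 had the lowest value of 42 lungs for 9 of 9 genes. Flt4 was below detection there and in 3 other fractionated lungs. Fractionated replicate 4 and acute replicate 9 were among the 5 lowest for 9 of 9. The share of all probes for which these lungs lay as low was not counted. When these 3 lungs, the arrays least like the median profile, were left out, a choice made after seeing the data, the fractionated SD was larger than the control SD for 9 of 9 genes with a median ratio of 1.32, beside 63.7% of probes (median 1.11). The acute SD was then larger for 6 of 9 genes with a median ratio of 1.05, beside 49.3% of probes (median 1.00). The 9 genes vary together over lungs, so their counts are not independent of each other.

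In fractionated replicate 13 the genes were low by different amounts. Eng was at 8.72 against a median of 11.98 in the other 41 lungs, a 9.53-fold lower signal, and 1.67 below the next lowest lung. Tek lay 5.36-fold, Robo4 5.11-fold and Cdh5 5.10-fold below that median. Tie1 was 3.62-fold, Pecam1 3.32-fold, Egfl7 3.30-fold and Cldn5 3.05-fold lower. Flt4 was not detected in this lung (4.93, against a median of 6.51 in the others), so no fold is given for it. Of the 8 genes detected in this lung, Eng was the lowest relative to the other lungs. The second probes of Cdh5, Egfl7 and Pecam1 gave -2.24, -1.93 and -1.59 on the log2 scale in the same lung. The dimmest probe of Pecam1 gave -0.54 and that of Egfl7 0.25. Markers of alveolar type 1 cells lay at -1.47, of fibroblasts at -1.17, of smooth muscle and pericytes at -1.28 and of alveolar type 2 cells at -0.87, beside the T cell and proliferation markers given above; their part in the result was not tested.

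The lungs high or low in 1 gene tended to be so in the others. Over the 41 lungs without fractionated replicate 13, the 36 pairs of genes had Pearson correlations between 0.274 (Flt4 with Cldn5) and 0.881 (Tek with Cdh5), with a median of 0.769, and Spearman correlations between 0.122 and 0.860. By two-sided permutation (100000 draws per pair, Benjamini-Hochberg over 36 pairs), Pearson's adjusted p was 1.3e-05 for Tek with Cdh5, where the raw p of 1e-05 is the smallest the draws can give. It was 0.083 for Flt4 with Cldn5, and Spearman's ran up to 0.446 for the same pair. The draws exchanged lungs freely across slides, sexes and groups, which can make these p-values too small. How often pairs of other genes correlate as highly was not counted. The 2 arrays farthest from the median of the first gene of a pair were then left out, which gave r between 0.199 and 0.874. After slide means were subtracted (40 lungs of slides 1 to 7) r lay between 0.465 and 0.927, with a median of 0.830. Cdh5 with Tie1 then had the highest value and Flt4 with Tek the lowest. For Cldn5 with Robo4 the correlation was 0.541 over lungs and 0.887 within slides. Slide accounted for 10.2% of the variance of Egfl7 and 39% of that of Flt4, against a median of 34.2% for a probe. Slides 3 to 5 (17 lungs) were also set against the other slides (24 lungs), a split that was not planned. Flt4 averaged 6.79 ± 0.45 (SD) and 6.24 ± 0.43, and Robo4 11.68 ± 0.38 and 11.28 ± 0.27. Cldn5 averaged 13.25 ± 0.51 and 13.53 ± 0.37. The means were 12.24 and 11.70 for Eng, 9.699 and 9.375 for Tie1, and 12.24 and 12.09 for Tek. They were 11.76 and 11.67 for Cdh5, 13.74 and 13.75 for Egfl7, and 12.34 and 12.40 for Pecam1.

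**Figure D3:**
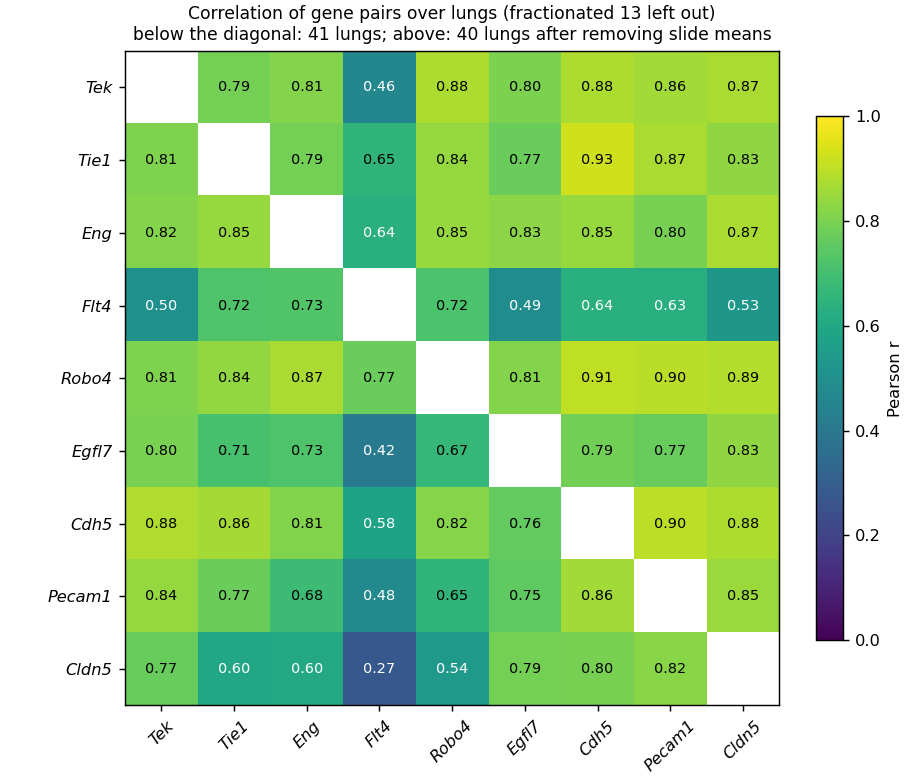
Pearson correlation of each pair of the 9 genes over 41 lungs (below the diagonal) and over 40 lungs after slide means were subtracted (above), with fractionated 13 left out. The lowest value on each side belongs to a pair with Flt4. The junction and angiopoietin receptor genes reach 0.881 below and 0.927 above the diagonal.

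Since these genes moved together, the bases before their start sites are given for the pair of highest correlation with an entry for both genes, Eng and Robo4 (r = 0.873), for the pair of lowest correlation, Flt4 and Cldn5, and for the Egfl7 window with most matches. Each run is the 250 bases before an annotated start, 5′ to 3′ on the gene's strand, from RefSeq on build GRCm38.p6. Capitals mark AGGAAG or its reverse complement CTTCCT, which contain the GGAA core that ETS factors such as Erg and Fli1 recognise.
Eng (chr2:32646345-32646594, plus strand): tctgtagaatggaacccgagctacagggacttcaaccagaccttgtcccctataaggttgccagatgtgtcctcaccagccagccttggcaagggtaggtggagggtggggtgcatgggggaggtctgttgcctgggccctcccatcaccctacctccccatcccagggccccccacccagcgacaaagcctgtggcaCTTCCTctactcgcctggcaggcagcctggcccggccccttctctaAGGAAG
Robo4 (chr9:37401722-37401971, plus strand): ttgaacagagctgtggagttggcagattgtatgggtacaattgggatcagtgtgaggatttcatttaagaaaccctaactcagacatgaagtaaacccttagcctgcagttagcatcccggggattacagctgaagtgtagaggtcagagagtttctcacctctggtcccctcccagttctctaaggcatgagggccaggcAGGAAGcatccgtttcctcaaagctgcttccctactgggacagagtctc
Egfl7 (chr2:26580833-26581082, plus strand): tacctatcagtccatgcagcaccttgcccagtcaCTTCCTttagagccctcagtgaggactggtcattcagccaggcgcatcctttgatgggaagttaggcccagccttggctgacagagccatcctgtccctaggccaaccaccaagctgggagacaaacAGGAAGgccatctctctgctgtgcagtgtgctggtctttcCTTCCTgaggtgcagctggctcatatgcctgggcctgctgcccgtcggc
Flt4 (chr11:49609429-49609678, plus strand): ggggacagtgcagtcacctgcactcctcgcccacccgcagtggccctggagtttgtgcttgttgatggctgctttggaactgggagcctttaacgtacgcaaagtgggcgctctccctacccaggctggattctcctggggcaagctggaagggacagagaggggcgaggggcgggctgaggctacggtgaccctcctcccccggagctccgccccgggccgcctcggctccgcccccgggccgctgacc
Cldn5 (chr16:18776597-18776846, plus strand): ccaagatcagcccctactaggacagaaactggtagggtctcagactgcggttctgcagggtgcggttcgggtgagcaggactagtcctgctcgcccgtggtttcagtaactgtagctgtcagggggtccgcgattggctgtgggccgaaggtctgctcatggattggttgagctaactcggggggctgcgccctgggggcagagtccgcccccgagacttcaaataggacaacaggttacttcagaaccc
The table held 10 windows for 8 of the genes, and Cdh5 and Pecam1 were not among them. AGGAAG on either strand occurred in 5 of these 10 windows, with 3 matches in the Egfl7 window shown, 2 in Eng, and 1 each in Robo4, Tie1 and a second Egfl7 window, and in 29.48% of 32851 windows of all genes. No match was found in the windows of Tek, Kdr, Flt4 and Cldn5. GGAA outside these letters is not marked. On either strand it occurred in 93.45% of all windows. It occurred 2 times in Tek, 4 in Kdr, 2 in Flt4 and 0 in Cldn5. The windows shown of Eng, Robo4 and Egfl7 held it 3, 3 and 5 times. The GATA letters AGATAA occurred in 0 of the 10 windows and in 9.99% of all windows. A match describes these letters only and is no binding site by itself.

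By their pattern over the 41 lungs, the genes most like the mean of the 9 were Ptgis, the prostacyclin synthase of vessels (r = 0.957, of 10288 genes compared), Hoxb5 (0.947), Akap12 (0.946), Plpp1 (0.946) and the VEGF receptor Flt1 (0.939). For single genes the most alike were Fmo1 for Tek (0.942), Phactr1 for Robo4 (0.939), Slc16a9 for Cldn5 (0.939), Gpx3 for Eng (0.922), Akap12 for Cdh5 (0.918), Chst1 for Egfl7 (0.913), Prdm6 for Tie1 (0.907), Akap2 for Pecam1 (0.895) and Fbxo21 for Flt4 (0.805). These genes were picked for that likeness, and all points share their arrays and slides. In fractionated replicate 13 the likeness did not extend to all of them: Hoxb5 lay at -2.69 and Flt1 at -2.08 relative to the median of the other lungs, but Akap12 at -0.36.

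Other lists of vessel genes followed the mean of the 9 closely over the 41 lungs. The mean deviation of arterial genes had r = 0.904 with it, aerocyte genes 0.892, endothelial transcription factors 0.892, general capillary genes 0.885, lymphatic genes 0.858 and venous genes 0.803. Smooth muscle and pericyte markers had r = 0.840 and alveolar type 1 markers 0.748, while alveolar type 2 markers had -0.626 and mature T cell markers -0.063. Macrophage markers ran the opposite way, with r = -0.797 (Spearman -0.665), -0.883 within slides and -0.700 without the 3 arrays least like the median profile. These are descriptions over lungs that share slides and normalization.

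In the lungs with the lowest endothelial values other than replicate 13, the macrophage markers were high. The mean deviation of the 9 genes was -1.16 in fractionated replicate 4 and -1.102 in acute replicate 9, and that of the macrophage markers 1.19 and 1.23. In replicate 13 it was -0.23, within the range of the other lungs. Of 7 macrophage markers listed, 5 were tested (Marco, Chil3, Mrc1, Adgre1 and Csf1r), Siglecf was detected on none of 41 arrays and Cd68 was not analysed here. Their summed linear signal ranged over 7605 to 37380 in fractionated lungs without replicate 13 (median 12930). It ranged over 6802 to 31060 in acute lungs (15790) and 6194 to 21800 in control lungs (14390). This sum mostly follows the probe of Chil3. Its log2 median over 41 arrays was 13.56, against 8.03 (Marco) to 10.71 (Mrc1) for the others. None of the 5 passed the test in either comparison with control lungs (medians 0.22 in fractionated and 0.088 in acute lungs). The part of macrophages in the endothelial values was not tested.

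**Figure D4:**
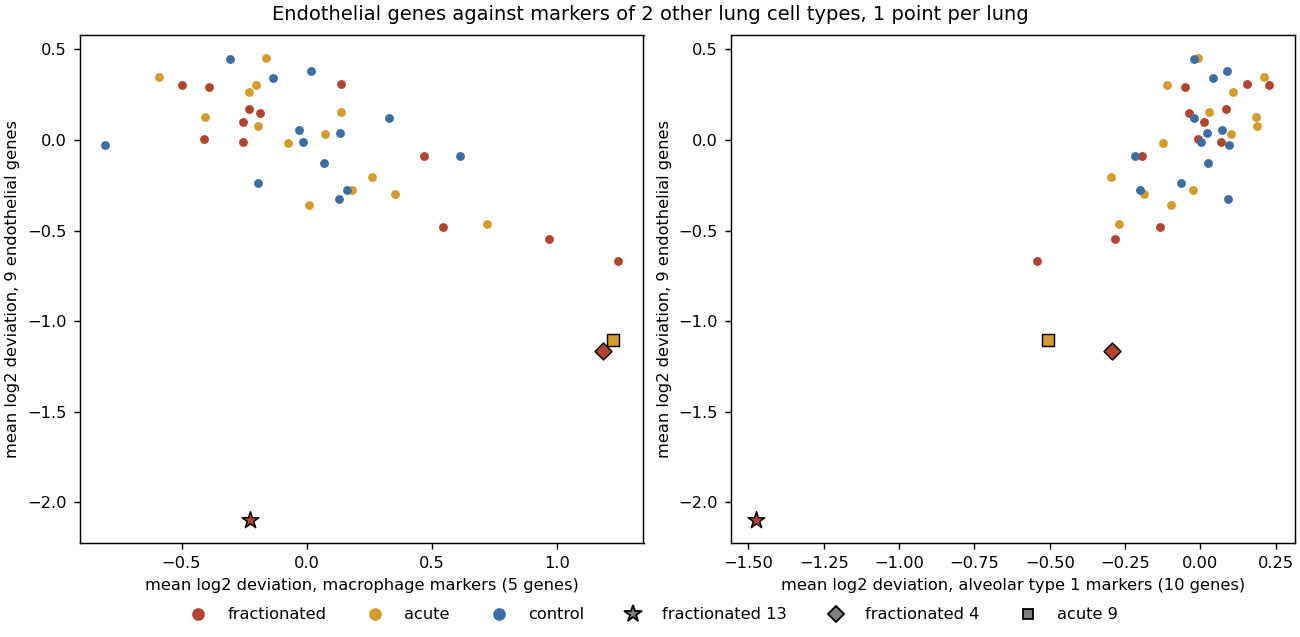
Mean log2 deviation of the 9 endothelial genes from the median of 41 lungs (y axis) against that of 5 macrophage markers (left) and 10 alveolar type 1 markers (right, x axes), 1 point per lung, coloured by group. Low endothelial values go with high macrophage values over 41 lungs (r = -0.797), and fractionated 13 lies off that trend at -0.23 and -2.10.

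The partners of these genes in their pathways were read from 7 lists, of which 75 of 88 genes were tested. Of these 75, 67 were lower and 8 higher in fractionated than in control lungs, beside 49.2% of 10297 genes lower, and 0 passed the test (0% of probes). Without fractionated replicate 13, 57 were lower and 18 higher, beside 46.9% of genes lower. In acute lungs 44 were lower and 31 higher, beside 43.9% of genes lower. List medians for fractionated lungs lay between -0.20 and -0.080, and without replicate 13 between -0.14 and -0.017. Of the lists, VEGF ligands and co-receptors were lower for 8 of 8 genes with that lung and for 5 of 8 without it, and endothelial transcription factors for 18 of 19 and 17 of 19.

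The genes named from these lists are the 2 of smallest p in each, and each value in fractionated against control lungs is followed by the value without replicate 13. The angiopoietin Angpt1, the ligand of Tek, lay at -0.51 ± 0.27 (-0.42) and Ptprb, a phosphatase that restrains Tek, at -0.23 ± 0.21 (-0.063). Around endoglin, the inhibitory Smad6 lay at -0.63 ± 0.31 (-0.42) and the receptor Acvrl1 at -0.21 ± 0.20 (-0.099). Flt1 was at -0.28 ± 0.17 (-0.15), its co-receptor Nrp1 at -0.14 ± 0.10 (-0.052), the Robo ligand Slit2 at -0.21 ± 0.18 (-0.088) and Robo1 at -0.21 ± 0.25 (-0.025). Most of these values were thus much nearer 0 without that lung. Epas1, which encodes the hypoxia factor HIF-2 alpha, lay at -0.59 ± 0.24 (-0.37) and the ETS factor Elk3 at -0.25 ± 0.10 (-0.20), the smallest unadjusted p-values of these lists (limma, 0.0170 and 0.0201, both adjusted p = 0.934). Among junction and haemostasis genes, Ctnnd1, the catenin that binds VE-cadherin, was at -0.23 ± 0.12 (-0.11), the junction protein F11r at -0.22 ± 0.12 (-0.094), the plasminogen activator Plat at -0.34 ± 0.18 (-0.22) and the angiotensin-converting enzyme Ace at -0.30 ± 0.16 (-0.20).

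Of the markers of vessel types, 27 of 32 genes were tested. In fractionated against control lungs 23 were lower and 4 higher, beside 49.2% of genes lower, and without replicate 13 19 were lower and 8 higher, beside 46.9%, with 0 called either way. General capillary genes had a median of -0.28 (-0.17 without replicate 13), among them Gpihbp1, which carries lipoprotein lipase to the capillary lumen, at -0.32 ± 0.19 (-0.20), and Cd93 at -0.28 ± 0.15 (-0.20). Aerocyte genes, of the thin capillary cells at the gas exchange surface, had a median of -0.25 (-0.083), with Ednrb at -0.26 ± 0.24 (-0.076) and Kitl at -0.27 ± 0.28 (-0.14). Arterial genes had a median of -0.069 (-0.0075), with Dll4 at -0.26 ± 0.18 (-0.15) and Hey1 at -0.18 ± 0.22 (-0.0083). Venous genes changed sign with that lung, with a median of -0.081 over all lungs and 0.011 without it, when 3 of 5 were higher; Slc6a2 was at -0.46 ± 0.23 (-0.34) and Nr2f2 at -0.27 ± 0.19 (-0.15). Lymphatic genes had a median of -0.21 (-0.10), with Lyve1 at -0.31 ± 0.25 (-0.13) and Mmrn1 at -0.29 ± 0.16 (-0.19). In acute lungs, 20 of the 27 were lower and 7 higher, with 0 called.

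Sex was the other labelled factor. Of the 9 genes, 9 had a higher mean in males, beside 48.7% of all probes, and 0 of 9 passed the test, beside 1.77% of probes (318 of 17927). Eng had 10.40, 12.13 and 13.20 (lowest, median and highest) in 22 males, against 8.72, 11.59 and 12.58 in 20 females. Its difference was 0.57 ± 0.21 (95% interval 0.15 to 0.98, a ratio of 1.48), with a limma adjusted p of 0.140. Egfl7 had 12.91, 13.92 and 14.57 in males, against 12.06, 13.63 and 14.09 in females, and a difference of 0.34 ± 0.13 (limma adjusted p = 0.149). Cldn5 had 12.61, 13.66 and 14.22 in males, against 11.93, 13.34 and 13.97 in females, and a difference of 0.33 ± 0.14 (limma adjusted p = 0.214). Males and females overlapped widely for these 3 genes, whose unadjusted p was under 0.05, as it was in the direction of males for 8.93% of probes.

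The other 6 genes differed by 0.16 ± 0.17 for Tek to 0.26 ± 0.15 for Cdh5. The median was 0.24 over the 9 genes, beside -0.0046 over all probes. Without fractionated replicate 13, a female, the median was 0.16, with Eng at 0.43 ± 0.16, Egfl7 at 0.27 ± 0.11 and Tek at 0.047 ± 0.13, and 9 of 9 were still higher in males, beside 49% of probes. Within slides, males without that lung lay above females on 6 of 7 slides for Eng (-0.14 to 0.99), Egfl7, Cdh5 and Cldn5, on 5 of 7 for Robo4, Pecam1 and Tie1, and on 4 of 7 for Flt4 and Tek. Of the 27 vessel type genes 26 were higher in males (23 without replicate 13), beside 5285 of 10297 genes (5269 without it). Of the 75 pathway genes, 53 were higher and 22 lower in males, with 0 called. Without replicate 13, 42 were higher and 33 lower. Over all 10297 genes, 139 passed as higher in males and 50 as lower (153 and 88 without replicate 13). The 1 vessel type gene that passed was Lyve1, a hyaluronan receptor of lymphatic endothelium, at 0.78 ± 0.20 (n = 22 and 20, limma adjusted p = 0.0269, and 0.0192 without replicate 13). Lyve1 also marks some macrophages, and the macrophage markers were higher in males for 1 of 5 (median -0.24). Heart muscle markers were higher in males for 7 of 7 (median 1.01, and 0.84 without replicate 13). Alveolar type 1 markers were higher for 10 of 10 (0.30 and 0.24), 1 of which passed the test. Red cell markers were higher for 3 of 3 (0.89 and 0.72). Fibroblast (0.092 and 0.027) and smooth muscle and pericyte markers (0.038 and 0.071) were each higher for 7 of 9 over all lungs. Proliferation markers were higher for 0 of 13 (-0.48 and -0.32) and mature T cell markers for 0 of 5 (-0.52 and -0.30). Alveolar type 2 markers were higher for 1 of 9 (-0.17), and for 0 of 9 without replicate 13 (-0.21). Platelet and megakaryocyte markers were higher in males for 4 of 4, of which 2 passed the test (0.80, and 0.76 without replicate 13). Without that lung, 1 gene each of the fibroblast, mature T cell and proliferation lists passed as lower in males. The genes of these lists that passed over all lungs, named after their values were seen, were Pdpn at 0.29 ± 0.067 (limma adjusted p = 0.0131), Gp9 at 0.96 ± 0.21 (0.00918) and Ppbp at 1.44 ± 0.29 (0.00448). The part of these lists in the sex difference was not tested.

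Whether the sexes differed in their response was read from the interaction of sex and group. In acute against control lungs, males were higher for 8 of 9 genes (median 0.077) and females lower for 9 of 9 (median -0.32). The interaction, males minus females, was above 0 for 9 of 9, beside 54.4% of probes, with a median of 0.38, beside 0.023 over all probes. It reached 0.60 ± 0.41 for Tek and 0.50 ± 0.51 for Eng, and 0 of 9 genes and 0% of probes passed (370 probes, 2.06%, at an unadjusted p under 0.05, with 0 of these genes by the probe of highest signal). The dimmest Pecam1 probe had an interaction of 0.50 ± 0.21 (limma p = 0.0228, adjusted p = 0.9999). Leaving out the 3 arrays least like the median profile, a choice made after seeing the data, gave a median of 0.28, beside 0.023 over all probes. Then 8 of 9 genes lay above 0. For fractionated lungs the interaction had a median of 0.27, with 8 of 9 above 0 beside 53.2% of probes. Without fractionated replicate 13 its median was -0.072, with 4 of 9 above 0 beside 52% of probes. Over all lungs, with replicate 13, the test passed 0 of 9 and 0% of probes (460 probes, 2.57%, unadjusted). Cldn5 in acute lungs, for example, had a median of 13.75 in males and 13.11 in females (n = 8 and 7), while in control lungs it had 13.63 and 13.44 (n = 7 and 6).

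**Figure D5:**
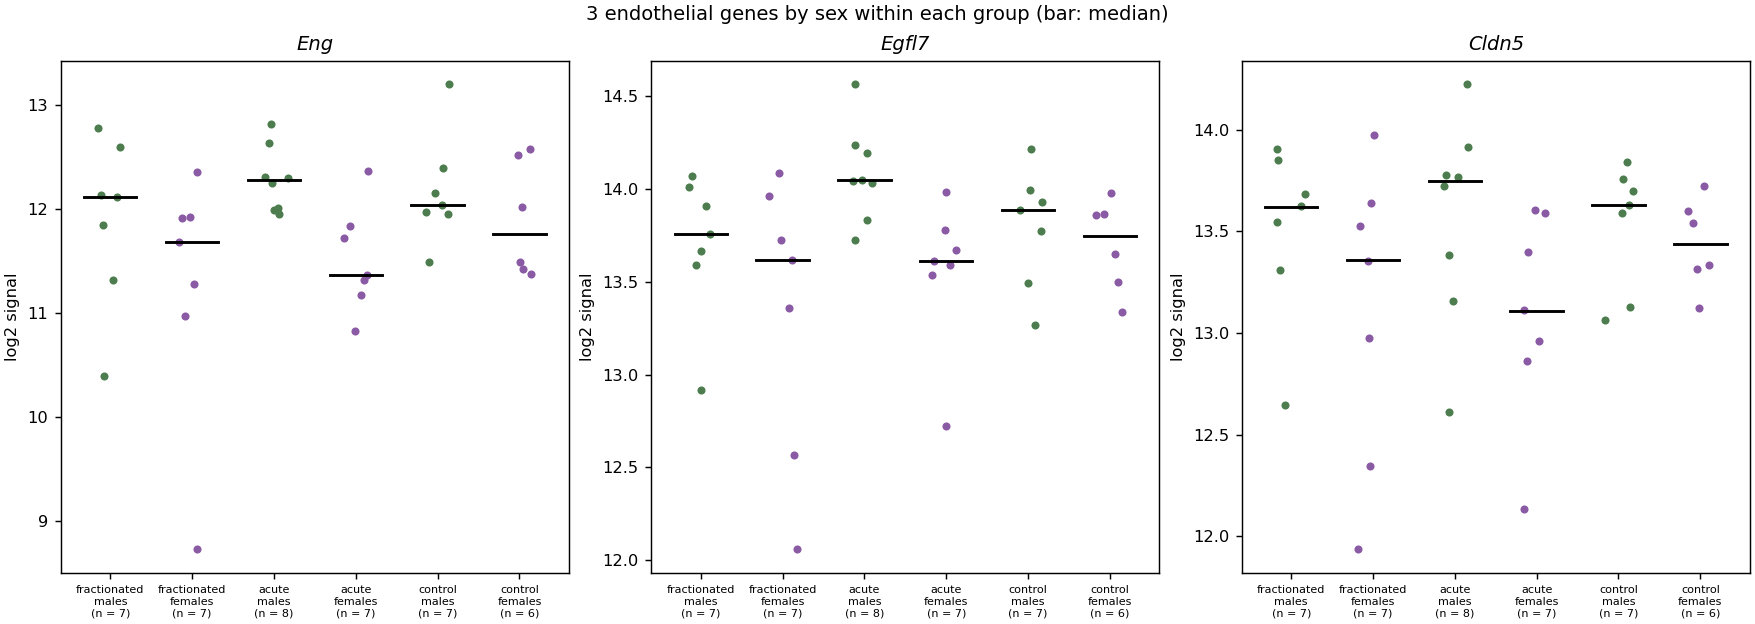
Normalized log2 signal (y axis) of Eng, Egfl7 and Cldn5 in each lung, by group and sex, with the median as a bar. Male medians lie above female medians in all 3 groups for these 3 genes, and the points overlap.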

How the data were processed

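The authors measured RNA of 42 left lungs, 1 per mouse, on an Illumina mouse bead array. The deposited signal table gives, per the file headers, each probe's average signal intensity, not normalized, and its detection p-value (sources used here name no software). The deposited value table holds log2 values, per the file headers and the values, for 41 arrays with the column of fractionated replicate 13 empty. Its columns ranked probes as the signals did (lowest Spearman correlation 0.999997), it was already quantile normalized, its column median was 3.96, and its exact background step is unknown; it served as an alternative.

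The signals were background-corrected, quantile normalized and put on a log2 scale with neqc (limma 3.58.1 in R 4.3.3, offset 16). Of 45281 probes, 17927 with a detection p under 0.01 on at least 13 arrays were tested with limma on group and sex, with a trended prior and Benjamini-Hochberg adjustment over all tested probes. Probes were named from the platform annotation (34885 with 1 symbol, 18 with several, 10378 with none). Fractionated, acute and control were taken from the source labels. The design assumed 10 genes to test, and 9 passed the filter. All 10 genes are named, and of each pathway and vessel type list the 2 genes of smallest p for fractionated against control and any gene called. Markers of other cells are given by list. The genes and lists were chosen with earlier results of these data known. Alternatives changed the arrays, the slide block, background, normalization, filter, sex term and sexes. The number of arrays limits the precision.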

Additional observations from a re-analysis of the deposited data

Results flagged for a closer look

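In each group and sex, the lowest and the highest lung of each of the 9 genes were compared with the rest by Dixon's gap test, and 12 of 54 sets of mice held a lung far from the others, where chance gives about 1 in 20. The genes vary together, so these sets are not independent. The same count over all probes was not made. Most of the flagged values came from the arrays least like the median profile over all tested probes. The count is therefore not read as particular to these genes.

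Fractionated replicate 13 stood below the other 6 fractionated females for Eng (8.724 on the log2 scale), Robo4 (9.103), Tek (9.801), Cdh5 (9.491), Pecam1 (10.66) and Tie1 (7.669). Fractionated replicate 4 stood below the other fractionated males for Egfl7 (12.91) and Tek (10.61). Among acute females, replicate 9 stood below the others for Egfl7 (12.72) and Pecam1 (11.32), and among acute males replicate 7 did so for Cdh5 (11.25) and Pecam1 (11.92). Each of these 12 values was the lowest of its set, and the control lungs gave none.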

How the results depend on the processing

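No gene of the 9 passed the test in any comparison under any alternative run, and the lowest limma adjusted p was 0.0644 (Eng, males against females, without the 3 arrays least like the median profile, an alternative chosen after seeing the data). No paired analysis was possible because replicate numbers follow the order of the samples and pair no mice; slide served as the block. The median of the genes lay between -0.39 and -0.038 for fractionated against control, -0.32 and 0.077 for acute against control and -0.27 and 0.0082 for fractionated against acute lungs. Single genes changed sign in 32 cases, 0 of them between the sexes, and the cause was not tested. For fractionated against control lungs these were Tie1 without the 3 arrays (0.0109) and Egfl7 with its dimmest probe (0.08281), detected on 17 arrays. For acute against control lungs, males alone gave Eng 0.111, Robo4 0.1714, Tek 0.1952, Cdh5 0.06379, Pecam1 0.03808, Tie1 0.07678 and Cldn5 0.03901, and females alone gave Egfl7 -0.1424. Median scaling, which moved the median probe by 0.099, gave Eng 0.01659, Robo4 0.1218, Tek 0.04306 and Tie1 0.01979. The dimmest Pecam1 probe gave 0.1666, and leaving out the 3 arrays gave Robo4 0.0431. For fractionated against acute lungs, leaving out replicate 13 gave Pecam1 0.01423, Tie1 0.008578 and Cldn5 0.06386, and with slide as a block also Tie1 0.01704 and Cldn5 0.01896. The authors' value table gave Pecam1 0.01487, Tie1 0.008905 and Cldn5 0.06318, females alone Tie1 0.03042 and Cldn5 0.01198, and the dimmest Egfl7 probe 0.01573. Leaving out the 3 arrays gave Tek 0.01923, Cdh5 0.008193, Pecam1 0.02059, Tie1 0.02831 and Cldn5 0.06028. Flt4 was not detected on 4 of 14 fractionated arrays, which limits what its differences can show.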
